A study of Mus musculus with 7 samples.

Results

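The 10 genes described here encode interferon-inducible GTPases: the guanylate-binding protein (GBP) genes Gbp2, Gbp3, Gbp5 and Gbp7, and the immunity-related GTPase (IRG) genes Irgm1, Irgm2, Igtp, Iigp1, Tgtp1 and Tgtp2. They were taken by symbol from the 55417 genes of the count table, and the list was drawn up with results of the Dpep2 hairpins against shNT known. Their values against shNT are therefore given as a description. The intervals and test calls printed with them are part of that description and are not evidence. Of the 10 genes 9 passed the filter on low counts and entered the fit of 13329 genes, and Tgtp1 did not. RNA sequencing was done on RAW264.7, an established mouse macrophage-like cell line, in which short hairpin RNAs lower Dpep2, a gene whose membrane dipeptidase processes the lipid mediator leukotriene D4. There were 2 libraries with the hairpin shDpep2.968, 2 with the hairpin shDpep2.759 and 3 with shNT, a hairpin used as control. The labels name no interferon or other stimulus for any group. They do not say whether each hairpin line is 1 clone or a pool, nor that replicates came from separate cultures. The p-values thus measure the spread between these samples alone, which may be technical.

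GBPs and IRGs are GTP-hydrolysing proteins that interferon induces in macrophages and many other cells. They gather on the vacuoles of intracellular pathogens such as Toxoplasma and Chlamydia, and GBPs also bind cytosolic bacteria and promote inflammasome responses. Interferon-gamma signalling acts on promoters mainly through the GAS motif. Type I interferons act mainly through the interferon-stimulated response element (ISRE), which the complex containing STAT2 and IRF9 binds, as IRF1 also can. Among the IRGs, Irgm1, Irgm2 and Igtp encode the regulatory GMS class, which resides on host membranes and keeps the effector proteins in their inactive state. Iigp1, Tgtp1 and Tgtp2 encode effectors of the GKS class, which load onto the pathogen's vacuole.

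The promoters of these genes share short interferon-response patterns. The choice did not use these sequences, but it took interferon-inducible genes, so the shares below are not independent of it. Some of the genes are also close copies, such as Tgtp1 and Tgtp2, so their windows are not separate observations. Promoter windows from RefSeq, build GRCm38.p6, reach from 250 bases before to 50 bases after an annotated start. They matched 9 of the 10 genes, all except Iigp1, in 10 windows, since Gbp3 has more than 1 start. Each window was searched for the ISRE core GAAA, any 2 bases, GAAA (read on the other strand as TTTC, any 2 bases, TTTC) and for the GAS pattern TTCNNNGAA, which reads the same on both strands. The ISRE core lay in 9 of the 10 windows and in all 9 genes, against 3.44% of all 32851 windows in the table. The GAS pattern lay in 6 of the 10 windows, in Gbp5, Gbp7, Irgm2, Igtp, Tgtp1 and Tgtp2, against 8.3% of all windows. Both patterns lay in the same 6 windows, against 0.454% of all windows, and no GAS match overlapped an ISRE match. A match is a description of letters, not a shown binding site, and an absent match says only that these letters are not in the window.

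The 120 bases before the start are shown for the 5 genes whose values the results below turn on most, with matches to either pattern in capitals and written 5′ to 3′ on the gene's strand. They lie at chr3:142620543-142620662 (plus strand) for Gbp2, at chr3:142559924-142560043 (plus strand) for Gbp3 and at chr3:142530216-142530335 (plus strand) for Gbp7. Those of Irgm1 and Igtp lie at chr11:48871421-48871540 (minus strand) and chr11:58199436-58199555 (plus strand).
Gbp2: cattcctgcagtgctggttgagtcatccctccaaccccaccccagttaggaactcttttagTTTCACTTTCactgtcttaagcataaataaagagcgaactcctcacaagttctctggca
Gbp3: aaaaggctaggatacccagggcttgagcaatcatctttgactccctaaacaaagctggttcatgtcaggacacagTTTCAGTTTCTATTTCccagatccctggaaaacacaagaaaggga
Gbp7: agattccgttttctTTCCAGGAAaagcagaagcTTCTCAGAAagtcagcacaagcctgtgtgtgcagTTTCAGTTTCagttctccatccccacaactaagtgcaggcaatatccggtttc
Irgm1: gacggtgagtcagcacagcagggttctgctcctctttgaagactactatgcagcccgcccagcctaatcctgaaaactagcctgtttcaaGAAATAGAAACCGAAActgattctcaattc
Igtp: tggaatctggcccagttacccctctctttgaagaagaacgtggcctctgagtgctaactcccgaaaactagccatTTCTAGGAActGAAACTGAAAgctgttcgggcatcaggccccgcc
Gbp2 held 1 ISRE match, starting 59 bases before the start, and no GAS match. In Gbp3 a pair of ISRE matches overlapped, starting 45 and 39 bases before the start. In Gbp7 the ISRE match, 53 bases before the start, was preceded by GAS matches that started 106 and 87 bases before the same start. Irgm1 held a pair of overlapping ISRE matches starting 30 and 24 bases before the start, with no GAS match.

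In Irgm2, Igtp, Tgtp1 and Tgtp2 the GAS and ISRE matches stood in 1 arrangement: the ISRE match started 11 bases after the first base of the GAS match, which left 2 bases between them. The 39 bases around that pair are shown to compare the 4 genes, with both patterns in capitals. They lie at chr11:58214890-58214928 (plus strand) for Irgm2, at chr11:58199499-58199537 (plus strand) for Igtp, at chr11:48992308-48992346 (minus strand) for Tgtp1 and at chr11:49064267-49064305 (minus strand) for Tgtp2.
Irgm2: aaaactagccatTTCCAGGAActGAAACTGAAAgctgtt
Igtp: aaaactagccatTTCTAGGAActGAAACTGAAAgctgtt
Tgtp1: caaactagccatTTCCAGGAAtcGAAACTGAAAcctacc
Tgtp2: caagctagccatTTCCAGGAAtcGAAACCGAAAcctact
The arrangement thus crosses the classes, with a pair of GMS genes and a pair of GKS genes. Within each pair the stretches are nearly the same, so the 4 genes are not 4 separate cases. Gbp5, which promotes assembly of the NLRP3 inflammasome, held its ISRE match 165 bases before the start and its GAS matches 245 and 52 bases before it.

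**Figure D1:**
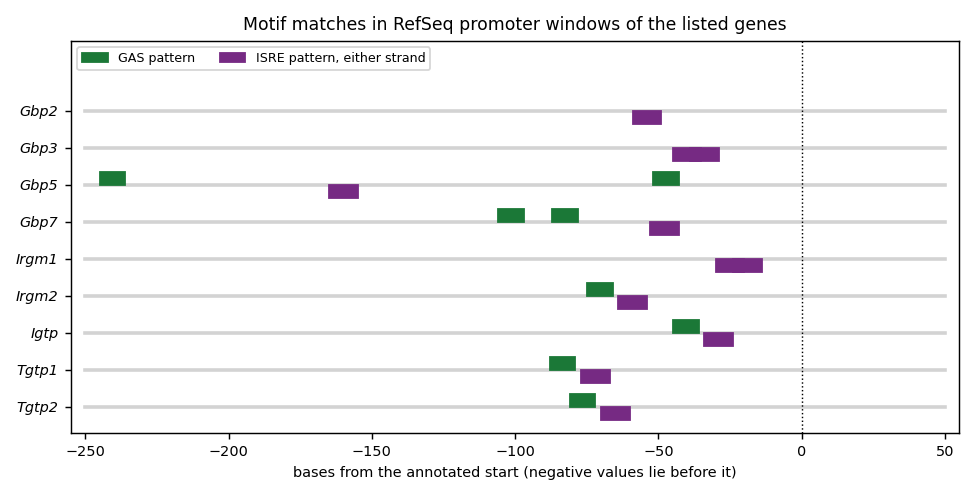
Positions of GAS and ISRE pattern matches in the promoter windows of 9 GTPase genes, in bases from the annotated start (horizontal axis), 1 row per gene. All 9 genes hold an ISRE match, and in Irgm2, Igtp, Tgtp1 and Tgtp2 it stands 2 bases after a GAS match.

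Total counts per library ran from 16548648 to 18401060, so that 3 counts, taken as the limit of what a library can show, equal 0.164 to 0.181 counts scaled to library size (CPM). The library sizes behind CPM were scaled by TMM. Dpep2 itself ranged over 17.9 to 24.9 CPM in the 4 hairpin libraries, against 52.1 to 60.3 CPM with shNT, without overlap. Summed macrophage markers (12 genes) reached 15065.2 to 15154.6 CPM with shDpep2.968, 17040.8 to 20746.1 CPM with shDpep2.759 and 14446.5 to 15885.2 CPM with shNT. Of the 10 tested, 2 rose and 0 fell with both hairpins averaged against shNT, where 3.44% of all tested genes were higher and 4.15% lower. With shDpep2.968 alone 0 of the 10 rose, against 2.29% of all tested genes, and with shDpep2.759 alone 2 rose, against 2.72%. Dendritic cell markers (9 genes) also moved with the hairpins, with summed levels of 40.5 to 47.3 CPM with shDpep2.968, 71.9 to 73.2 CPM with shDpep2.759 and 18.0 to 21.1 CPM with shNT. Of these 5 were tested, and in the averaged comparison 2 rose (Cd83 and Itgax) and 0 fell, against the same 3.44% and 4.15%. The lowest averaged log2 fold change among the 5 was -0.89. The sum was mostly Cd83, at 31.0 to 38.1 CPM with shDpep2.968, 62.4 to 66.6 CPM with shDpep2.759 and 14.5 to 16.3 CPM with shNT. The call of Itgax was lost without shNT replicate 2 or 3 (edgeR adjusted p = 0.0525 and 0.0685). Itgax did not pass with shDpep2.759 alone (log2 fold change 0.71, edgeR adjusted p = 0.218). Cd209a was at 0 in every library. Neutrophil markers (8 genes) summed to 34.2 to 50.3 CPM with shDpep2.968, 100 to 237 CPM with shDpep2.759 and 17.3 to 33.7 CPM with shNT. That sum was nearly all S100a8 (averaged log2 fold change 1.87, edgeR adjusted p = 0.0899), with Ly6g, Ltf and Ngp at 0. Fibroblast markers (8 genes) summed to 2.20 to 2.42 CPM with shDpep2.968, 3.59 to 3.69 CPM with shDpep2.759 and 0.786 to 1.86 CPM with shNT, with Col1a2 at 0. Of the 2 tested, 1 was higher averaged, against the same 3.44%, while 0 were higher with shDpep2.968 alone and 1 with shDpep2.759 alone. B cell markers (7 genes) summed to at most 4.15 CPM, T and NK cell markers (10 genes, 6 at 0) to at most 0.347 CPM and epithelial markers (6 genes, 3 at 0) to at most 0.173 CPM. The part of any of these in the values below was not tested, and in bulk RNA a larger share of cells of a type and more RNA per cell cannot be told apart.

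Among the GBP genes, Gbp2, Gbp3 and Gbp5 were several-fold higher with either hairpin, and Gbp7 was higher mainly with shDpep2.968. Gbp2, which acts against Toxoplasma and in the release of bacterial lipopolysaccharide to the cytosol, had 2.54 and 4.55 CPM in shDpep2.968 cells and 7.74 and 7.61 CPM in shDpep2.759 cells, against 1.33, 0.767 and 0.615 CPM in shNT cells. All 4 hairpin libraries lay above all 3 shNT libraries, and both shDpep2.759 libraries lay above both shDpep2.968 libraries. The fitted level was 5.78-fold that of shNT averaged over both hairpins (95% interval 3.67 to 9.11), 3.93-fold with shDpep2.968 and 8.50-fold with shDpep2.759. These folds rest on 11 to 22 counts in the shNT libraries. Gbp5 had 2.08 and 3.92 CPM in shDpep2.968 cells and 7.13 and 3.92 CPM in shDpep2.759 cells, against 0.725, 1.21 and 1.01 CPM in shNT cells. It was likewise above shNT in every hairpin library, 4.12-fold on average (95% interval 2.52 to 6.74), with 12 to 22 counts in the shNT libraries.

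Gbp3, a GBP without the lipid-anchor motif at its end, had 22.9 and 29.1 CPM in shDpep2.968 cells and 28.3 and 29.2 CPM in shDpep2.759 cells, against 9.06, 7.51 and 8.33 CPM in shNT cells. Every hairpin library lay above every shNT library, and the ranges of the hairpins overlapped. The fold was 3.30 on average (95% interval 2.69 to 4.04), 3.14 with shDpep2.968 and 3.47 with shDpep2.759. Gbp7, which is known to help assemble the phagocyte NADPH oxidase, had 33.8 and 41.1 CPM in shDpep2.968 cells and 22.6 and 26.3 CPM in shDpep2.759 cells, against 24.6, 17.6 and 17.7 CPM in shNT cells. The lower shDpep2.759 library lay below the highest shNT library, so Gbp7 was the tested gene of the 10 whose groups overlapped. Its fold was 1.88 with shDpep2.968 (95% interval 1.46 to 2.42) and 1.22 with shDpep2.759 (0.944 to 1.59).

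**Figure D2:**
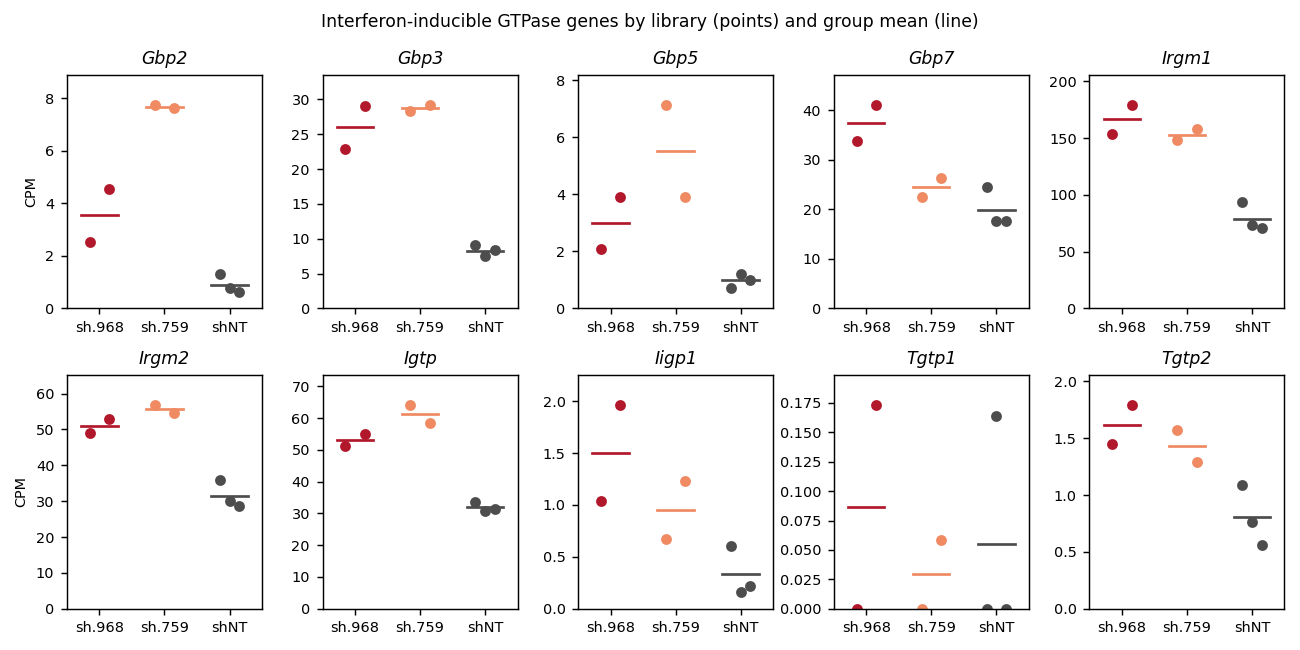
CPM of each of the 10 GTPase genes (vertical axes start at 0) in shDpep2.968, shDpep2.759 and shNT libraries. Points are libraries and lines are group means. The hairpin libraries lie above the shNT libraries in 8 panels, those of Gbp7 and the near-empty Tgtp1 being the exceptions.

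The regulatory IRG genes were the most abundant of the 10 and had smaller folds than Gbp2, Gbp3 and Gbp5. Irgm1, which is required for resistance to mycobacteria in mice and has a role in autophagy, had 153.9 and 179.2 CPM in shDpep2.968 cells and 148.7 and 157.7 CPM in shDpep2.759 cells, against 93.4, 73.2 and 71.1 CPM in shNT cells. Its level was 2.02-fold that of shNT on average (95% interval 1.68 to 2.41). Irgm2, which restrains caspase-11 responses to lipopolysaccharide, had 49.1 and 52.8 CPM in shDpep2.968 cells and 56.7 and 54.5 CPM in shDpep2.759 cells, against 36.0, 30.0 and 28.7 CPM in shNT cells, a 1.69-fold difference (1.42 to 2.00). Igtp, also called Irgm3 and required for resistance to Toxoplasma, had 51.3 and 55.1 CPM in shDpep2.968 cells and 64.0 and 58.3 CPM in shDpep2.759 cells, against 33.5, 30.8 and 31.3 CPM in shNT cells, a 1.79-fold difference (1.53 to 2.09). For all 3 genes every hairpin library was above every shNT library, and shNT replicate 1 was the highest of the controls.

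Transcripts of the effector IRG genes were scarce in these cells. Iigp1 had 1.04 and 1.96 CPM in shDpep2.968 cells and 0.673 and 1.23 CPM in shDpep2.759 cells, against 0.604, 0.164 and 0.224 CPM in shNT cells. Its libraries did not overlap, but the 3 shNT libraries held 3 to 10 counts, and the average fold of 3.61 had a 95% interval of 1.70 to 7.67. Tgtp2 had 1.45 and 1.79 CPM in shDpep2.968 cells and 1.57 and 1.29 CPM in shDpep2.759 cells, against 1.09, 0.767 and 0.559 CPM in shNT cells, again without overlap, and its average fold was 1.89 (1.15 to 3.11). Tgtp1 had 0 and 3 counts in shDpep2.968 cells, 0 and 1 in shDpep2.759 cells and 0, 3 and 0 in shNT cells, too few for a fold. Tgtp1 and Tgtp2 transcripts are identical at 2804 of 2810 aligned bases (99.8%), so how the reads were divided between this pair is uncertain. With their counts summed, the averaged log2 fold change was 0.87 (SE 0.33), against 0.92 (SE 0.33) for Tgtp2 alone.

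Per kilobase of transcript, the order of levels was led by the regulatory IRG genes. Irgm1 stood at 73.7 ± 7.93 CPM per kilobase with shDpep2.968 (SD, n = 2) and 67.8 ± 2.80 with shDpep2.759 (n = 2), against 35.1 ± 5.45 with shNT (n = 3). In shNT cells Igtp followed with a mean of 15.8 CPM per kilobase, then Irgm2 with 8.95, and the ranges of Irgm1, Igtp and Irgm2 did not overlap. Gbp7 and Gbp3 came next in shNT cells, at 3.14 to 4.38 and 2.80 to 3.38 CPM per kilobase, ranges that overlapped. Gbp2 (0.244 to 0.528), Gbp5 (0.237 to 0.395) and Tgtp2 (0.199 to 0.387) also overlapped each other in shNT cells, and Iigp1 (0.0527 to 0.194) and Tgtp1 (0 to 0.0582) came last. With the hairpins the order within the GBP genes differed: Gbp3 was above Gbp7 in both hairpin groups, at 8.54 to 10.9 against 6.02 to 7.33 CPM per kilobase with shDpep2.968 and 10.6 to 10.9 against 4.02 to 4.68 with shDpep2.759. Gbp2, Gbp5 and Tgtp2 no longer shared a range with shDpep2.759, where the 3 genes stood at 3.03 to 3.08, 1.28 to 2.33 and 0.459 to 0.559 CPM per kilobase. The summed level of all 10 genes, not per length, was 318.1 and 369.8 CPM in shDpep2.968 cells and 337.4 and 340.1 CPM in shDpep2.759 cells, against 200.3, 162.3 and 159.5 CPM in shNT cells.

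**Figure D3:**
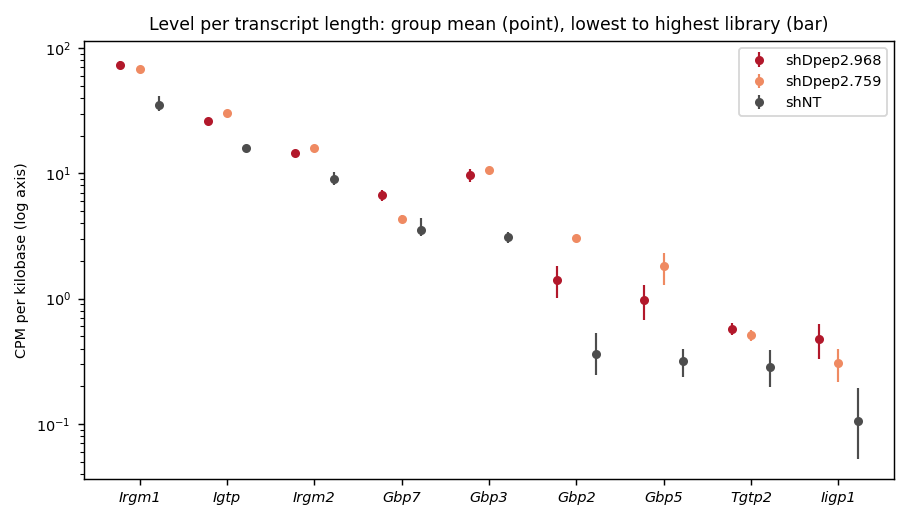
Level per transcript length (CPM per kilobase, log axis) of the 9 tested GTPase genes in shDpep2.968, shDpep2.759 and shNT cells. Points are group means and bars run from the lowest to the highest library. Irgm1 leads in every group, and Gbp3 and Gbp7 overlap in shNT cells alone.

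Read as counts of calls (edgeR quasi-likelihood test, Benjamini-Hochberg adjusted p under 0.05 over all 13329 genes), 8 of the 9 tested genes were higher with both hairpins averaged, all except Tgtp2, where 3.44% of all tested genes were higher and 4.15% lower. With shDpep2.968 alone 8 were higher, again all except Tgtp2, against 2.29% of all tested genes. With shDpep2.759 alone 6 were higher, all except Gbp7, Iigp1 and Tgtp2, against 2.72% of all tested genes. Nothing is read from these counts, since the genes were chosen on the same contrasts, and the single-hairpin contrasts share their shNT libraries. Each of the 4 hairpin libraries lay above each of the 3 shNT libraries in 8 of the 9 tested genes, all except Gbp7, as it did in 9.03% of all tested genes. The median log2 fold change of the 9 genes was 1.01 averaged, 1.07 with shDpep2.968 and 0.95 with shDpep2.759, against 0.00 over all tested genes in each comparison. The count with shDpep2.968 was 2 without shDpep2.968 replicate 2 and 4 without shNT replicate 2 or without shNT replicate 3. The averaged calls of Gbp7 and Iigp1 each rested on shDpep2.968 replicate 2 and on replicates 2 and 3 of shNT, and that of Iigp1 also on replicate 2 of shDpep2.759, being lost when any of these was left out.

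**Figure D4:**
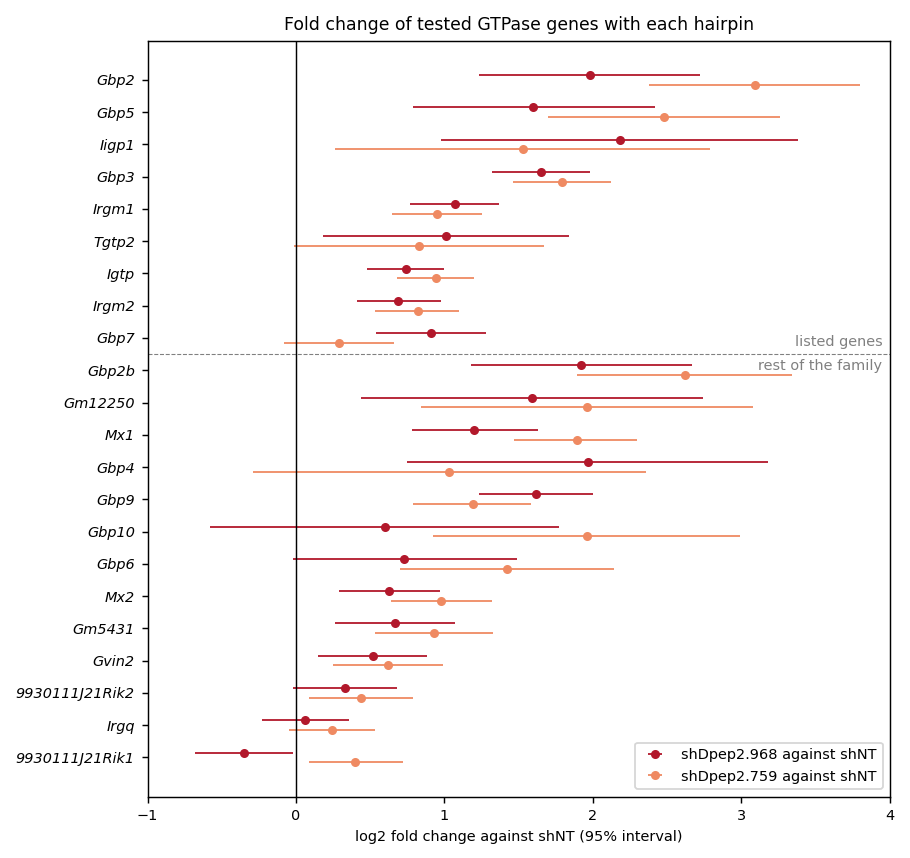
Log2 fold change against shNT (horizontal axis, bars are 95% intervals) with shDpep2.968 and with shDpep2.759 for the 9 tested GTPase genes of the list, above the dashed line, and for the rest of the family, below it. Gbp2 has the highest value of the listed genes with shDpep2.759 (3.09), and 9930111J21Rik1 lies on opposite sides of 0 with the 2 hairpins (-0.35 and 0.40).

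The genes were taken by symbol and not by the difference between shDpep2.968 and shDpep2.759, which was tested. They were chosen with earlier results of these libraries known, so the choice is not shown to be blind to this difference. The shNT libraries do not enter the difference itself, but they do enter the estimate of spread behind its p-values. It asks whether the GTPase genes differ between hairpins that lowered Dpep2 to similar levels (log2 difference of Dpep2 -0.14, 95% interval -0.51 to 0.23, edgeR adjusted p = 0.725). Of the 9 tested genes 0 passed the threshold by edgeR, DESeq2 or limma-voom, where 0.84% of all tested genes passed by edgeR. Over all genes the 112 calls became 91, 71 and 28 without shNT replicates 1, 2 and 3, and 61 with the hairpin libraries alone, and the count of the 9 genes was 0 in each of these. An unadjusted p under 0.05 was reached by 3 genes. Gbp2 was lower with shDpep2.968 (log2 difference -1.11, 95% interval -1.82 to -0.41, edgeR adjusted p = 0.140), and so was Gbp5 (-0.88, -1.68 to -0.08, edgeR adjusted p = 0.287). Gbp7 was higher with shDpep2.968 (0.62, 0.21 to 1.02, edgeR adjusted p = 0.156). The libraries of the hairpins did not overlap for Gbp2 and Gbp7, nor for Irgm2 and Igtp, and those of Gbp5 met at 3.92 CPM after rounding. Nothing is read from this, since each hairpin had 2 libraries and the share over all tested genes is not given here. The sign of Gbp7 was opposite to that of Gbp2 and Gbp5.

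Gbp3, Irgm1, Irgm2 and Igtp differed less between the hairpins than those 3 genes, though a missed threshold does not show that they were alike. Gbp3 differed by -0.14 on the log2 scale (95% interval -0.50 to 0.21, edgeR adjusted p = 0.703), Irgm1 by 0.12 (-0.21 to 0.45, 0.736), Irgm2 by -0.13 (-0.44 to 0.19, 0.707) and Igtp by -0.20 (-0.49 to 0.08, 0.491). Iigp1 (0.66, -0.52 to 1.84, edgeR adjusted p = 0.592) and Tgtp2 (0.17, -0.70 to 1.05, 0.866) had wide intervals. The median of the 9 differences was -0.13, against -0.01 over all tested genes. With no filter on low counts Gbp2 and Gbp7 passed the threshold (edgeR adjusted p = 0.0116 and 0.0178), as they did with a correction for GC content and length chosen after seeing the data (0.0443 and 0.0487). The start sites of Gbp5, Gbp7, Gbp3, Gbp2b and Gbp2 lie in this order on chromosome 3, so that of Gbp7, with a difference of opposite sign, lies between those of Gbp5 and Gbp2.

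**Figure D5:**
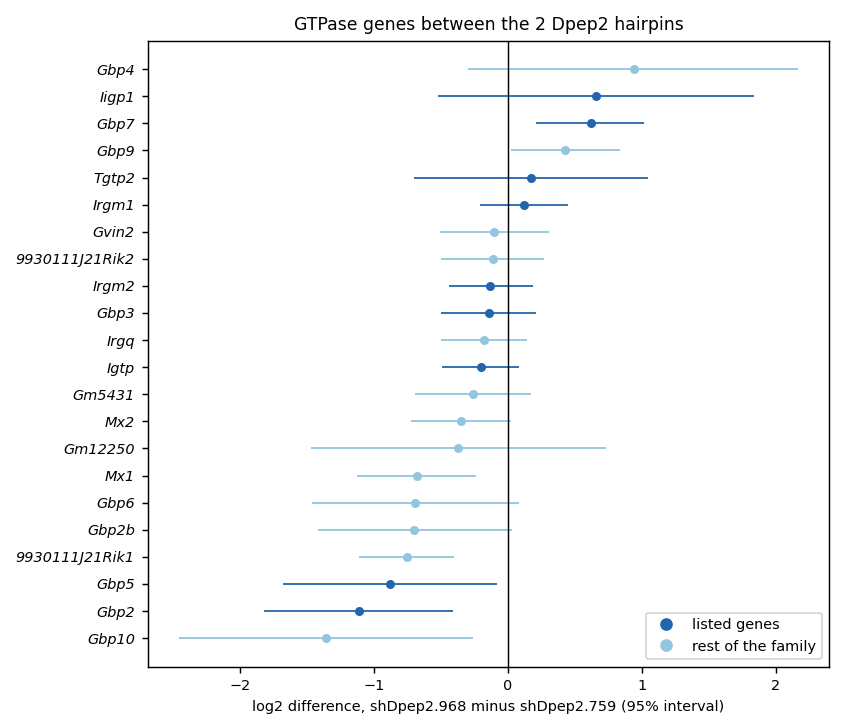
Log2 difference, shDpep2.968 minus shDpep2.759 (horizontal axis, bars are 95% intervals), of the tested GTPase genes. Dark points are the 9 listed genes and light points the rest of the family. The interval of Gbp7 lies above 0, those of Gbp2 and Gbp5 below it.

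The rest of the family, listed by nomenclature, was tested in the averaged comparison. This list and those that follow were drawn up with earlier results of these libraries known, so their counts are not independent evidence of a direction. Of the 7 other GBP genes 5 were tested, and 3 rose, against 3.44% of all tested genes higher in this comparison. Gbp2b, the gene of mouse GBP1, had 2.66 and 5.18 CPM in shDpep2.968 cells and 6.73 and 5.97 CPM in shDpep2.759 cells, against 1.45, 0.767 and 0.894 CPM in shNT cells, and rose by 2.27 on the log2 scale (SE 0.30, edgeR adjusted p = 0.000909). Its aligned transcript is 78.7% identical to that of its neighbour Gbp2, and its difference between the hairpins did not pass either (log2 difference -0.70, 95% interval -1.42 to 0.03, edgeR adjusted p = 0.350). Gbp9 had 12.5 and 16.6 CPM in shDpep2.968 cells and 10.5 and 11.1 CPM in shDpep2.759 cells, against 5.02, 4.88 and 4.36 CPM in shNT cells, and rose by 1.40 (SE 0.16, edgeR adjusted p = 0.000274). Gbp6 rose by 1.08 (SE 0.30, edgeR adjusted p = 0.0433), a call that DESeq2 (adjusted p = 0.0692) and limma-voom (0.0544) did not make. It was also lost on leaving out replicate 2 of either hairpin or any of the 3 shNT libraries (edgeR adjusted p from 0.0977 to 0.151). Gbp4 (2.83-fold, 95% interval 1.31 to 6.09, edgeR adjusted p = 0.0954) and Gbp10 (2.42-fold, 1.24 to 4.71, 0.103) did not pass. Gbp6 and Gbp10 transcripts are 98.3% identical over their aligned bases, so reads may have been divided between them.

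Gbp8 was too low to be tested and was the GBP gene whose counts ran the other way. It had 5 and 5 counts with shDpep2.968 and 2 and 1 with shDpep2.759, against 6, 15 and 9 with shNT. With no filter on low counts its averaged log2 fold change was -1.79 (edgeR adjusted p = 0.0752). Gbp11 had at most 1 count per library.

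The table holds 9 other IRG genes, of which 5 were tested and 2 rose, against the same 3.44% of all tested genes. Gm12250, for which RefSeq gives the synonym Irgb10, a protein that acts with GBPs on bacteria, had 1.16 and 1.27 CPM in shDpep2.968 cells and 2.19 and 0.937 CPM in shDpep2.759 cells, against 0.242, 0.274 and 0.671 CPM in shNT cells. It rose by 1.78 on the log2 scale (SE 0.46, edgeR adjusted p = 0.0349) on 4 to 12 counts per shNT library. That call was lost on leaving out either shDpep2.968 library, replicate 1 of shDpep2.759 or replicate 1 or 2 of shNT (edgeR adjusted p from 0.0645 to 0.161). Gm5431 (synonym Irgb9b8) rose by 0.80 (SE 0.16, edgeR adjusted p = 0.00932), though not without shNT replicate 3 (0.0719). Of the 6 promoter windows matched in the rest of the family 3 held the ISRE core and 1, that of Gm12250, also the GAS pattern, whereas that of Gm5431 held neither. 9930111J21Rik2 (synonym Irgb5) had an averaged log2 fold change of 0.39 (SE 0.14, edgeR adjusted p = 0.110), Irgq of 0.15 (SE 0.11, 0.458) and 9930111J21Rik1 of 0.03 (SE 0.13, 0.929). 9930111J21Rik1 had 13.6 and 11.6 CPM in shDpep2.968 cells and 23.1 and 19.4 CPM in shDpep2.759 cells, against 17.0, 15.6 and 15.7 CPM in shNT cells. It was thus below the control in both libraries of the first hairpin and above it in both of the second, with a log2 difference between hairpins of -0.75 (95% interval -1.11 to -0.40, edgeR adjusted p = 0.0546, DESeq2 adjusted p = 0.0165). Gm4951, F830016B08Rik, Gm4841 and Irgc1 had at most 6 counts per library and were not tested.

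All 3 tested genes of the other interferon-inducible large GTPases rose in the averaged comparison, against 3.44% of all tested genes. Mx1, whose protein blocks influenza viruses in mice that carry an intact allele, had 12.5 and 13.1 CPM in shDpep2.968 cells and 24.4 and 16.8 CPM in shDpep2.759 cells, against 6.59, 5.26 and 4.86 CPM in shNT cells, and rose by 1.55 (SE 0.17, edgeR adjusted p = 0.000272). Mx2 rose by 0.81 (SE 0.14, edgeR adjusted p = 0.00346). Gvin2, a very large interferon-inducible GTPase gene, averaged 239.2 CPM with shDpep2.968 and 256.7 CPM with shDpep2.759, against 167.4 CPM with shNT, and rose by 0.57 (SE 0.15, edgeR adjusted p = 0.0342). The Gvin2 call did not hold on leaving out replicate 2 of any group or replicate 3 of shNT (edgeR adjusted p from 0.0587 to 0.211). Gvin1 had 0 counts in every library and Gvin3 at most 4, so neither was tested. Over the rest of the family the 8 calls became 5 without shDpep2.968 replicate 2, without shNT replicate 2 or without shNT replicate 3. Of these 13 tested genes 4 rose with shDpep2.968 alone, against 2.29% of all tested genes, and 8 with shDpep2.759 alone, against 2.72%.

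Transcripts of the interferons themselves were almost absent. Of 20 listed ligand genes Ifnb1, which encodes interferon-beta, was the 1 that was tested. It had 5 and 19 counts with shDpep2.968 and 11 and 6 with shDpep2.759, against 3, 7 and 6 with shNT, groups that overlapped (averaged log2 fold change 0.92, 95% interval -0.30 to 2.14, edgeR adjusted p = 0.358). Ifng, which encodes interferon-gamma, had 1 count in 1 shNT library and 0 elsewhere, and every interferon-alpha gene listed had 0 counts. Of 8 tested receptor and kinase genes 1 rose and 0 fell, against 3.44% of all tested genes higher and 4.15% lower. That 1 was Il10rb, a shared receptor chain of interferon-lambda and the IL-10 family, at 1.40-fold (log2 fold change 0.49, SE 0.12, edgeR adjusted p = 0.0266), and the call was lost without shDpep2.968 replicate 2 or any shNT library (edgeR adjusted p from 0.0543 to 0.162). With shDpep2.968 alone 0 of the 8 rose and 1 fell, against 2.29% of all tested genes higher and 2.96% lower. It was Ifnar2, which encodes a chain of the type I interferon receptor (log2 fold change -0.48, edgeR adjusted p = 0.0366), and its call did not hold on leaving out any 1 of the shNT or shDpep2.968 libraries (edgeR adjusted p from 0.0521 to 0.206). The interferon-gamma receptor genes Ifngr1 and Ifngr2, named like Ifnar2 after their values were seen, had averaged log2 fold changes of -0.26 (edgeR adjusted p = 0.196) and 0.12 (0.471).

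Among the interferon transcription factor genes, Stat2 rose 1.33-fold (edgeR adjusted p = 0.0207), with 117.4 and 127.6 CPM in shDpep2.968 cells and 165.2 and 156.2 CPM in shDpep2.759 cells, against 109.7, 102.6 and 105.0 CPM in shNT cells. Batf2, a macrophage factor that acts with IRF1, rose 1.83-fold (edgeR adjusted p = 0.0117). The Stat2 call did not hold on leaving out replicate 2 of shDpep2.968 or replicate 2 or 3 of shNT (edgeR adjusted p from 0.0703 to 0.150), and that of Batf2 without shNT replicate 3 (0.0757). Irf1, also named after its values were seen, had 18.7 and 17.1 CPM in shDpep2.968 cells and 18.6 and 16.8 CPM in shDpep2.759 cells, against 15.8, 15.2 and 17.2 CPM in shNT cells, with an averaged log2 fold change of 0.15 (95% interval -0.11 to 0.41, edgeR adjusted p = 0.490). Of 10 tested signalling inhibitor genes 1 rose and 0 fell, against 3.44% of all tested genes higher and 4.15% lower, with a median log2 fold change of 0.07. Usp18, which removes ISG15 and blocks the type I receptor, rose 1.60-fold (log2 fold change 0.68, SE 0.11, edgeR adjusted p = 0.00308), and the count was 2 without shDpep2.968 replicate 1.

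Other interferon targets moved unevenly. Of 29 tested type I interferon target genes 18 rose and 0 fell, against 3.44% of all tested genes higher and 4.15% lower, with a median log2 fold change of 0.56. Ifit3 had 45.0 and 60.9 CPM in shDpep2.968 cells and 65.6 and 49.0 CPM in shDpep2.759 cells, against 17.1, 16.4 and 17.3 CPM in shNT cells. The count of 18 was 11 without shNT replicate 2. Of 19 tested interferon-gamma target genes other than GTPases 3 rose and 1 fell, against the same 3.44% and 4.15%, with a median of 0.12. With shDpep2.968 alone 1 rose (median -0.08), against 2.29% of all tested genes, and with shDpep2.759 alone 5 rose (median 0.27), against 2.72%. Between the hairpins 2 of the 19 were lower with shDpep2.968, where 0.84% of all tested genes passed in either direction. Cd274, which encodes the checkpoint ligand PD-L1, rose 2.11-fold (SE of log2 fold change 0.14, edgeR adjusted p = 0.000897), with 38.7 and 55.9 CPM in shDpep2.968 cells and 82.3 and 75.9 CPM in shDpep2.759 cells, against 33.5, 27.7 and 25.6 CPM in shNT cells. The Fc receptor gene Fcgr1 rose 1.51-fold (edgeR adjusted p = 0.0161) and the chemokine gene Cxcl10 1.40-fold (0.0164), both lost on leaving out replicate 2 or 3 of shNT or replicate 2 of shDpep2.968 (edgeR adjusted p from 0.0502 to 0.122), where the list's count was 2. Fcgr1 and Cxcl10 did not pass with shDpep2.968 alone (edgeR adjusted p = 0.137 and 0.147), though both passed with shDpep2.759 alone (0.0112 and 0.0108). Cd74, the invariant chain of MHC class II, fell by 0.81 on the log2 scale (SE 0.12, edgeR adjusted p = 0.00179), with 424.9 and 449.7 CPM in shDpep2.968 cells and 446.2 and 331.6 CPM in shDpep2.759 cells, against 660.7, 739.2 and 773.6 CPM in shNT cells. Every hairpin library was thus below every shNT library. Ciita, the class II transactivator gene, had at most 3 counts per library.

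Genes that act with the GTPases in cell-autonomous defence rose in part. Of 13 tested genes of GBP-linked defence and the inflammasome 6 rose and 0 fell, against 3.44% of all tested genes higher and 4.15% lower, with a median log2 fold change of 0.43. Casp4, which encodes mouse caspase-11, the lipopolysaccharide sensor that GBPs help to activate, had 41.8 and 46.5 CPM in shDpep2.968 cells and 51.9 and 44.9 CPM in shDpep2.759 cells, against 28.3, 27.7 and 25.2 CPM in shNT cells, and rose 1.71-fold (edgeR adjusted p = 0.00155). Zbp1, a sensor of Z-form nucleic acid, rose 1.72-fold (edgeR adjusted p = 0.00162) and Apol9b, an interferon-induced apolipoprotein L gene, 1.86-fold (0.000809). Il1b, whose protein the inflammasome matures, rose 3.37-fold (edgeR adjusted p = 0.000272). Of 21 tested genes of vacuole loading and autophagy conjugation, the ubiquitin-like machinery that directs IRGs and GBPs to vacuoles, 2 rose and 0 fell, against the same 3.44% and 4.15% of all tested genes, with a median of 0.11. Trim21, a ubiquitin ligase and cytosolic antibody receptor, rose 1.78-fold (edgeR adjusted p = 0.00366). Rnf213, a giant ubiquitin ligase that coats bacteria, rose 1.41-fold (edgeR adjusted p = 0.0457), a call lost on leaving out any shNT library, replicate 1 of shDpep2.968 or replicate 2 of shDpep2.759 (edgeR adjusted p from 0.0783 to 0.198). Of 8 prenylation enzyme genes, whose products lipidate GBPs that end in a CaaX motif, 0 passed by edgeR, DESeq2 or limma-voom and 1 had an unadjusted p under 0.05. The 2 most abundant, Zmpste24 and Icmt, had averaged log2 fold changes of 0.21 (SE 0.12, edgeR adjusted p = 0.330) and -0.09 (SE 0.10, 0.623).

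The genes whose profile over the 7 libraries was most like the median profile of the 9 GTPase genes were found among 9988 other genes with a mean of at least 5 CPM. The measure was the root-mean-square difference of log2 CPM, centred on the shNT mean. Il10, which encodes an anti-inflammatory cytokine, was nearest at 0.0917, with 41.5 and 43.2 CPM in shDpep2.968 cells and 40.3 and 34.7 CPM in shDpep2.759 cells, against 24.0, 18.9 and 17.4 CPM in shNT cells. Il1rn, which encodes the interleukin-1 receptor antagonist, followed at 0.129, then the type I interferon targets Oasl2 (0.133), Cmpk2 (0.140), Rsad2 (0.148) and Herc6 (0.148). The phosphatase gene Dusp1 (0.155) and Trim30d (0.159) completed the 8. The median profile itself stood at 0.97 and 1.19 in shDpep2.968 cells and 1.01 and 1.00 in shDpep2.759 cells, against 0.25, -0.10 and -0.14 in shNT cells, on the centred log2 scale. In each of the 8 genes, as in that median profile, shNT replicate 1 was the highest control library, from 0.1 in Oasl2 to 0.41 in Il1rn. The measure took in the shNT libraries, so this follows largely from how the 8 genes were found, and nothing is read from it.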

How the data were processed

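Gene expression was measured by RNA sequencing in 7 RAW264.7 libraries. Per the labels' protocols, libraries came from total RNA with the TruSeq Stranded Total RNA kit and were sequenced as pairs. The authors deposited whole-number counts for 55417 gene symbols. The tools in the submitters' processing notes are Trim Galore and Salmon, with neither version nor role, and the build there is hg38, which is human whereas the symbols are mouse. Which mouse annotation and strand setting were used, and whether the counts are rounded estimates from Salmon, is not given in the sources used here. Were they estimates, a model would have divided reads between near-identical genes, and reads from overlapping genes may not be told apart.

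These counts went into edgeR 4.0.16 under R 4.3.3. A filter by filterByExpr left 13329 genes, which were TMM-scaled and given a mean for each of the 3 groups in a single fit of the 7 libraries (4 residual degrees of freedom, common biological coefficient of variation 13.8%). With the robust quasi-likelihood test, the average of the hairpins and each of them were set against shNT, and shDpep2.968 against shDpep2.759. Benjamini-Hochberg adjustment ran over all tested genes, and the threshold was 0.05. No library was counted as a repeat of another, since all pairs within groups differed beyond counting noise (chi-square over its degrees of freedom 14.2 to 41). For centred log2 values, 0.5 was added to each count before scaling to CPM. Lengths, GC content and transcript identities came from GENCODE M21, taking the longest coding transcript of each gene, and promoters from RefSeq. Protein features were not analysed here, and the count over the transcription factor list is not reported here.

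The 10 genes and all gene lists were chosen with earlier results of these data known. Named genes were the 10 genes, the rest of the family with counts, Dpep2, up to 4 genes of each further list (those past the threshold at a mean of 5 CPM or more, by smallest p) (2 most abundant genes where none passed), and the 8 genes nearest in profile. Alternatives were other scaling, no low-count filter, DESeq2 1.42.0, limma-voom (limma 3.58.1), a fit without robust estimation, a block on replicate number, leaving out 1 library, merging the hairpins into 1 group, fitting the compared groups alone, summing Tgtp1 and Tgtp2, and a correction for GC content and length that was chosen after seeing the data.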

Additional observations from a re-analysis of the deposited data

Results flagged for a closer look

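9930111J21Rik1, an IRG gene outside the list of 10, had log2 fold changes of opposite sign with the hairpins: -0.35 with shDpep2.968 against shNT (edgeR adjusted p = 0.187) and 0.40 with shDpep2.759 against shNT (0.146), neither of which passed the threshold. Both shDpep2.968 libraries lay below all 3 shNT libraries and both shDpep2.759 libraries lay above them. The test of the difference between the hairpins gave a log2 difference of -0.75 (edgeR adjusted p = 0.0546, DESeq2 adjusted p = 0.0165), so it passed the threshold by DESeq2 and not by edgeR. The contrasts share their shNT libraries.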

How the results depend on the processing

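Under the alternatives run, the log2 fold changes against shNT of the 9 tested GTPase genes stayed above 0 in all 162 values of each of the 3 comparisons with shNT. Of these, 12 values of the averaged comparison and 20 with shDpep2.968 lost their call, and 0 with shDpep2.759. The averaged log2 fold change of Gbp3 lay between 1.63 and 1.80 and that of Iigp1 between 1.52 and 2.58. Counts of genes past the threshold moved more, and the cause was not tested. In the order averaged, shDpep2.968, shDpep2.759 (each against shNT) and shDpep2.968 against shDpep2.759, they were 1012, 700, 630 and 112 as reported, 1590, 1443, 1131 and 669 with no low-count filter, and 2263, 1824, 1783 and 578 with the GC and length correction chosen after seeing the data. Between the hairpins the count was 376 by DESeq2, 63 without robust estimation and 61 with the compared groups alone, which gave 1350 for shDpep2.968 against shNT. With all hairpin libraries as 1 group the averaged count was 551. Of the 9 GTPase genes, 2 passed between the hairpins with no low-count filter and 2 with the GC and length correction, against 0 as reported.

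Leaving out 1 library in turn gave 321 to 1468 genes averaged, 69 to 1309 with shDpep2.968, 253 to 768 with shDpep2.759 and 6 to 1070 between the hairpins. Where that left a hairpin with 1 library, the lone library was assumed to vary like the other groups. The GTPase genes called were 6 to 8 averaged and 2 to 8 with shDpep2.968, and the other family genes 5 to 7. The median log2 fold change of the GTPase genes was 0.93 to 1.19 averaged and 0.96 to 1.27 with shDpep2.968, the highest without shNT replicate 1.

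The labels do not say whether the replicate numbers pair the samples. The deviations of same-numbered libraries had correlations of -0.19 to 0.06. These cannot decide it, since in a group of 2 libraries the deviations mirror each other. A replicate block gave 404, 308 and 312 genes for the averaged, shDpep2.968 and shDpep2.759 comparisons and 5 of the other family genes averaged. Of the 9 GTPase genes it called 6 averaged (Gbp7 and Iigp1 lost), 6 with shDpep2.968 (Irgm2 and Iigp1 lost) and 6 with shDpep2.759. Depth limits Gbp2, Gbp5, Iigp1, Tgtp1 and Tgtp2, which had at most 22 counts in any shNT library.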
